A study of Mus musculus with 3 samples.

Results

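In thymic cells sorted with CD1d tetramer, 5 genes were followed, namely Cd4, Cd8a and Cd8b1, which encode the T cell coreceptors, and Zbtb7b and Runx3, which encode the transcription factors ThPOK and Runx3. The members were taken by symbol, and they were 5 of the 30406 gene identifiers that all 3 libraries share. The 3 droplet single-cell RNA-seq libraries were 1 per condition. C57BL/6 was thymus of C57BL/6 mice without bone marrow transplantation (BMT), labelled as 7 weeks of age. BM only and BM + Spl were thymus of F1 mice (C57BL/6 x BALB/c) that had been lethally irradiated and given T cell-depleted C57BL/6 marrow, labelled as 16 weeks of age and 9 weeks after BMT. BM + Spl recipients also received C57BL/6 splenic cells and are labelled as having chronic graft-versus-host disease (GVHD), and BM only recipients are labelled as being without it. The recipients thus had an F1 thymic stroma, radioresistant host cells and donor marrow of 1 parental strain, whereas the C57BL/6 mice had none of these, and mice were pooled in a library. In all 3 groups CD8+ cells were removed with a CD8 antibody and beads, and cells positive for TCRβ and CD1d tetramer and negative for CD24 and NK1.1 were sorted, so that shares of cells with Cd8a or Cd8b1 and shares of NKT1 cells were partly set by the depletion and by the NK1.1 gate.

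CD4 binds MHC class II and CD8 binds MHC class I, and each brings the kinase Lck to the T cell receptor. CD8 is made as a dimer of CD8α with CD8β on conventional cytotoxic T cells, or as a dimer of CD8α with itself on some other lymphocytes and on a class of dendritic cells. In conventional thymocytes that have passed positive selection, ThPOK holds the CD4 helper fate and restrains Cd8 genes and Runx3, whereas Runx3 silences Cd4 and Zbtb7b and holds the CD8 cytotoxic fate. Invariant natural killer T (iNKT) cells of the mouse are selected on CD1d by CD4+CD8+ thymocytes, need ThPOK, and mature as CD4+ cells or as cells with neither coreceptor. Of their subsets, NKT1 cells resemble type 1 cytokine producers, NKT2 cells make interleukin-4 and hold the most PLZF (Zbtb16), and NKT17 cells make interleukin-17.

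In GRCm38 with GENCODE vM21, Cd8b1 (ENSMUSG00000053044, chr6:71322788-71337494, plus strand) and Cd8a (ENSMUSG00000053977, chr6:71373427-71379173, plus strand) are neighbours, with 35932 bases between them. Cd4 (ENSMUSG00000023274) lies on the same chromosome at chr6:124864692-124888221 on the minus strand. Zbtb7b (ENSMUSG00000028042) lies at chr3:89377644-89394776 on the minus strand and Runx3 (ENSMUSG00000070691) at chr4:135120652-135177990 on the plus strand. Zbtb7b overlaps the antisense gene Gm15417 and Runx3 overlaps the antisense gene Gm16224. The sources used here do not give whether counting used strand, so reads of these overlapping pairs may not be told apart.

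Because Runx3 acts on the genes of this set, windows of 300 bases around RefSeq start sites (250 before and 50 after, GRCm38.p6) were searched for the core Runx motif TGTGGT on both strands, where ACCACA is its reverse complement. Of 32851 such windows of all genes, 5506 (16.8%) held at least 1 match. RefSeq windows were at hand for Cd8a (1), Zbtb7b (2) and Runx3 (2). A window of each gene is shown, with matches in capitals, to set a window with 2 matches beside windows with 1 and with 0. A match is a string of letters and not a shown site.
Runx3 (chr4:135120395-135120694, plus strand): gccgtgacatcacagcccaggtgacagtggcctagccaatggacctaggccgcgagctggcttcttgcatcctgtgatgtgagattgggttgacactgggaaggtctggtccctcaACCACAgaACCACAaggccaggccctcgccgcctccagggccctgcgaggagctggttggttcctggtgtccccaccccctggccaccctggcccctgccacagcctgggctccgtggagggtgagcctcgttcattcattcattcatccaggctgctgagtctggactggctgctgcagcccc
Zbtb7b (chr3:89387622-89387921, minus strand): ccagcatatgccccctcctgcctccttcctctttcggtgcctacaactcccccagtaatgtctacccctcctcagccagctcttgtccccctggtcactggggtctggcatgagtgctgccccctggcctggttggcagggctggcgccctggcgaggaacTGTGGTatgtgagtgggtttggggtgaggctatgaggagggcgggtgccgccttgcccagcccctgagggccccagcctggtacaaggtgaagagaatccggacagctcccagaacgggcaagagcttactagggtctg
Cd8a (chr6:71373177-71373476, plus strand): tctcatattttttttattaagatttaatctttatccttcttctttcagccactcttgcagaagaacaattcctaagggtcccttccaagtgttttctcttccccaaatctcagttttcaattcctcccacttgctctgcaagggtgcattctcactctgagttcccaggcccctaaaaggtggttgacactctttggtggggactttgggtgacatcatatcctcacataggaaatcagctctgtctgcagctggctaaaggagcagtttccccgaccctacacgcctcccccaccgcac
The second windows of Zbtb7b and Runx3 held 0 matches.

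After the study's limits on cells (more than 200 and fewer than 6000 genes, under 10% mitochondrial UMIs), 4434 C57BL/6, 5970 BM only and 5557 BM + Spl cells remained, with medians of 12073.5, 4721 and 6463 UMIs (unique molecular identifiers, each a counted transcript molecule). Levels are given as CPM (a gene's UMIs as a part of all UMIs of a set of cells, times 1000000), with exact Poisson 95% intervals, and shares of cells with at least 1 UMI with exact Clopper-Pearson intervals. With 1 library per condition no difference between conditions could be tested, and intervals cover counting error only, not the spread between mice. Intervals of levels and ratios take UMIs of the same cell as independent. They are thus too narrow where few cells hold many UMIs, as with Cd8a and Cd8b1. Shares were also taken after thinning each cell to 2700 UMIs, which left out 15, 959 and 568 cells. UMIs of T cell receptor beta V segments numbered 1047, 52355 and 72355, and the headers name 2 versions of Cell Ranger, so that C57BL/6 may have been made with another kit, and a difference in level between C57BL/6 and the transplant libraries cannot be told apart from kit and software. The transplant libraries shared 43 barcodes, or 0.720% of the BM only cells, and shared 0 with C57BL/6.

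Cells were gated by 11 lists of 8 marker genes, none of which holds a member. The gated subsets are named after their lists, and 12.2%, 14.6% and 20.8% of cells stayed ungated. Cells were also split by their beta V segment into those with a segment common among iNKT cells (Trbv1, Trbv12-2/13-2, Trbv13-1, Trbv13-3 or Trbv29) and those with other segments. Conventional T cells use the former too, so an iNKT segment does not by itself make a cell an iNKT cell. Of the NKT2-like cells with a segment call, whose gate required Zbtb16, 90.7%, 97.1% and 96.0% had an iNKT segment in C57BL/6, BM only and BM + Spl. The NKT1 list does not hold Zbtb16. In C57BL/6 only 854 of 4434 cells had a segment call. Of NKT1-like cells with a call, 92.8% (103 of 111) had an iNKT segment in C57BL/6 and 91.2% (2092 of 2294) in BM only. In BM + Spl 38.3% (95% interval 34.5 to 42.1) did. Over all NKT1-like cells Zbtb16 was at 101, 50.9 and 28.8 CPM in C57BL/6, BM only and BM + Spl. Several values of NKT1-like cells of BM + Spl are therefore also given by segment. The NKT17 list does not hold Zbtb16 either. Its cells had iNKT segments in 97.0% (32 of 33), 69.9% and 45.7% of those called in C57BL/6, BM only and BM + Spl. Zbtb16 was there at 227, 184 and 70.5 CPM. NKT17-like thus stands for the list and not for iNKT cells alone. Cells gated by the naive T list held Zbtb16 at 207, 176 and 135 CPM, above the NKT1-like cells, and iNKT segments in 88.6%, 76.0% and 67.4% of those called, which goes against reading them as conventional naive T cells, and their name stands only for the list.

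Cd4 was the coreceptor gene found in the most cells of each library. It was found in 43.8%, 25.2% and 49.4% of cells in the order C57BL/6, BM only, BM + Spl, at 62.9 CPM (60.9 to 64.9), 67.5 CPM (64.8 to 70.3) and 121 CPM (118 to 124). In cells thinned to equal depth these shares were 13.4%, 13.6% and 28.0%, so C57BL/6 and BM only were close to each other and BM + Spl stood above both. A cell with Cd4 mostly held few copies, with a median of 1 UMI in NKT1-like cells of BM only and 2 UMIs in those of BM + Spl.

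Within C57BL/6 and BM only, NKT2-like cells held more Cd4 than NKT1-like cells, and within BM + Spl they held less. In C57BL/6 Cd4 was at 76.8 CPM in NKT2-like, 58.9 CPM in naive T-like, 33.4 CPM in NKT1-like and 8.67 CPM in NKT17-like cells, with no overlap of intervals between neighbours in this order. In BM only it was at 77.9 CPM in NKT2-like, 34.1 CPM in NKT1-like and 44.6 CPM in NKT17-like cells. In BM + Spl it was at 84.9 CPM in NKT2-like, 164 CPM (153 to 176) in NKT1-like and 140 CPM (113 to 171) in NKT17-like cells. The level in NKT2-like cells thus stayed between 76.8 and 84.9 CPM in the 3 libraries. Of the NKT1-like, NKT2-like and NKT17-like cells, those of the NKT1 and NKT17 lists differed between BM only and BM + Spl. Cells of other lists differed too, such as plasmacytoid dendritic cell-like cells at 53.3 and 83.8 CPM and those of the next paragraph. The log2 ratio of NKT1-like over NKT2-like cells was -1.20 (-1.38 to -1.02), -1.19 (-1.38 to -1.01) and 0.95 (0.82 to 1.08) in the 3 libraries. In cells with iNKT segments alone it was -0.79, -1.36 and 0.74.

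In BM only and BM + Spl the highest Cd4 was in cells of another list. In BM only it was at 167 CPM in cells gated by the Sostdc1, Nrn1, Penk and Lag3 list and at 149 CPM in regulatory T-like cells, the Foxp3+ cells that restrain other T cells, with overlapping intervals. In BM + Spl the former stood apart at 352 CPM (326 to 378), found in 74.9% of 354 cells, above regulatory T-like cells at 128 CPM. B cell-like cells, which should lack Cd4, had a Cd4 UMI in 1.35% of 74 cells in BM only (median 6050 UMIs per cell). In BM + Spl the share was 13.5% of 52 cells (median 8061 UMIs). Cd3e, a gene of the T cell receptor complex, was found in 9.46% and 23.1% of these B cell-like cells, and doublets were not removed. Whether these Cd4 UMIs came from free RNA or from doublets was not tested. Low shares of Cd4 in BM + Spl are to be read with this limit. After thinning, the share in B cell-like cells was 1.37% and 4.08%, beside 30.4% of NKT1-like and 21.0% of NKT2-like cells in BM + Spl.

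Cd8a and Cd8b1 were nearly absent from C57BL/6 cells, with 20 and 117 UMIs among 4434 cells that had been depleted of CD8+ cells. Of the 117 Cd8b1 UMIs, 41 came from 7 cells gated as CD4+CD8+ thymocyte-like and 41 from 2312 NKT2-like cells. After BMT both genes were found in more cells. Cd8a was in 5.86% of BM only and 11.2% of BM + Spl cells (38.9 and 74.3 CPM), and Cd8b1 in 7.37% and 15.1% (37.8 and 96.9 CPM). B cell-like cells gave a floor, with a UMI of either gene in 0 of 74 and 0 of 52 cells, which by a limit of 3 counts allows a share of up to 4.05% and 5.77%.

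A large part of the Cd8 UMIs after BMT came from cells that are not T cells. Plasmacytoid dendritic cell-like cells, which carry Siglech and Irf8 and make type I interferon, were 3.55% of BM only and 7.63% of BM + Spl cells. They held 37.2% and 49.7% of all Cd8b1 UMIs and 28.0% and 24.1% of all Cd8a UMIs. Over whole libraries their 8 markers summed to 228 CPM in C57BL/6, 816 CPM in BM only and 1676 CPM in BM + Spl. C57BL/6 had only 4 cells of this gate. Its NKT2-like cells, without a Siglech UMI, reached the same sum of 228 CPM. Its NKT1-like cells, also without Siglech, were at 234 CPM. The C57BL/6 sum is thus not a measure of plasmacytoid dendritic cell-like cells. Whether plasmacytoid dendritic cell-like cells had a part in other cells' Cd8 was not tested. Cd8b1 was at 357 CPM (326 to 390) in these cells in BM only and at 615 CPM (589 to 642) in BM + Spl, and Cd8a at 277 and 228 CPM. Conventional dendritic cell-like cells, of which there were 28 and 25, held Cd8a with little Cd8b1, with 10 and 22 UMIs against 1 and 2.

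Among T cells the level of Cd8a differed by subset and by library. NKT2-like cells stayed near 0, with 4 Cd8a UMIs in 739 BM only cells and 4 in 1351 BM + Spl cells. NKT1-like cells held 34.9 CPM (31.8 to 38.3) in BM only and 234 CPM (221 to 249) in BM + Spl. Cells of the naive T list held 26.8 CPM and 108 CPM. Cells of the Sostdc1, Nrn1, Penk and Lag3 list went the other way, from 377 CPM (312 to 453) to 103 CPM (89.4 to 118). These UMIs came from 21 of 61 and 36 of 354 cells. Regulatory T-like cells were low in both, at 5.16 and 21.6 CPM, from 17 UMIs in 6 cells and 108 UMIs in 22 cells.

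**Figure D1:**
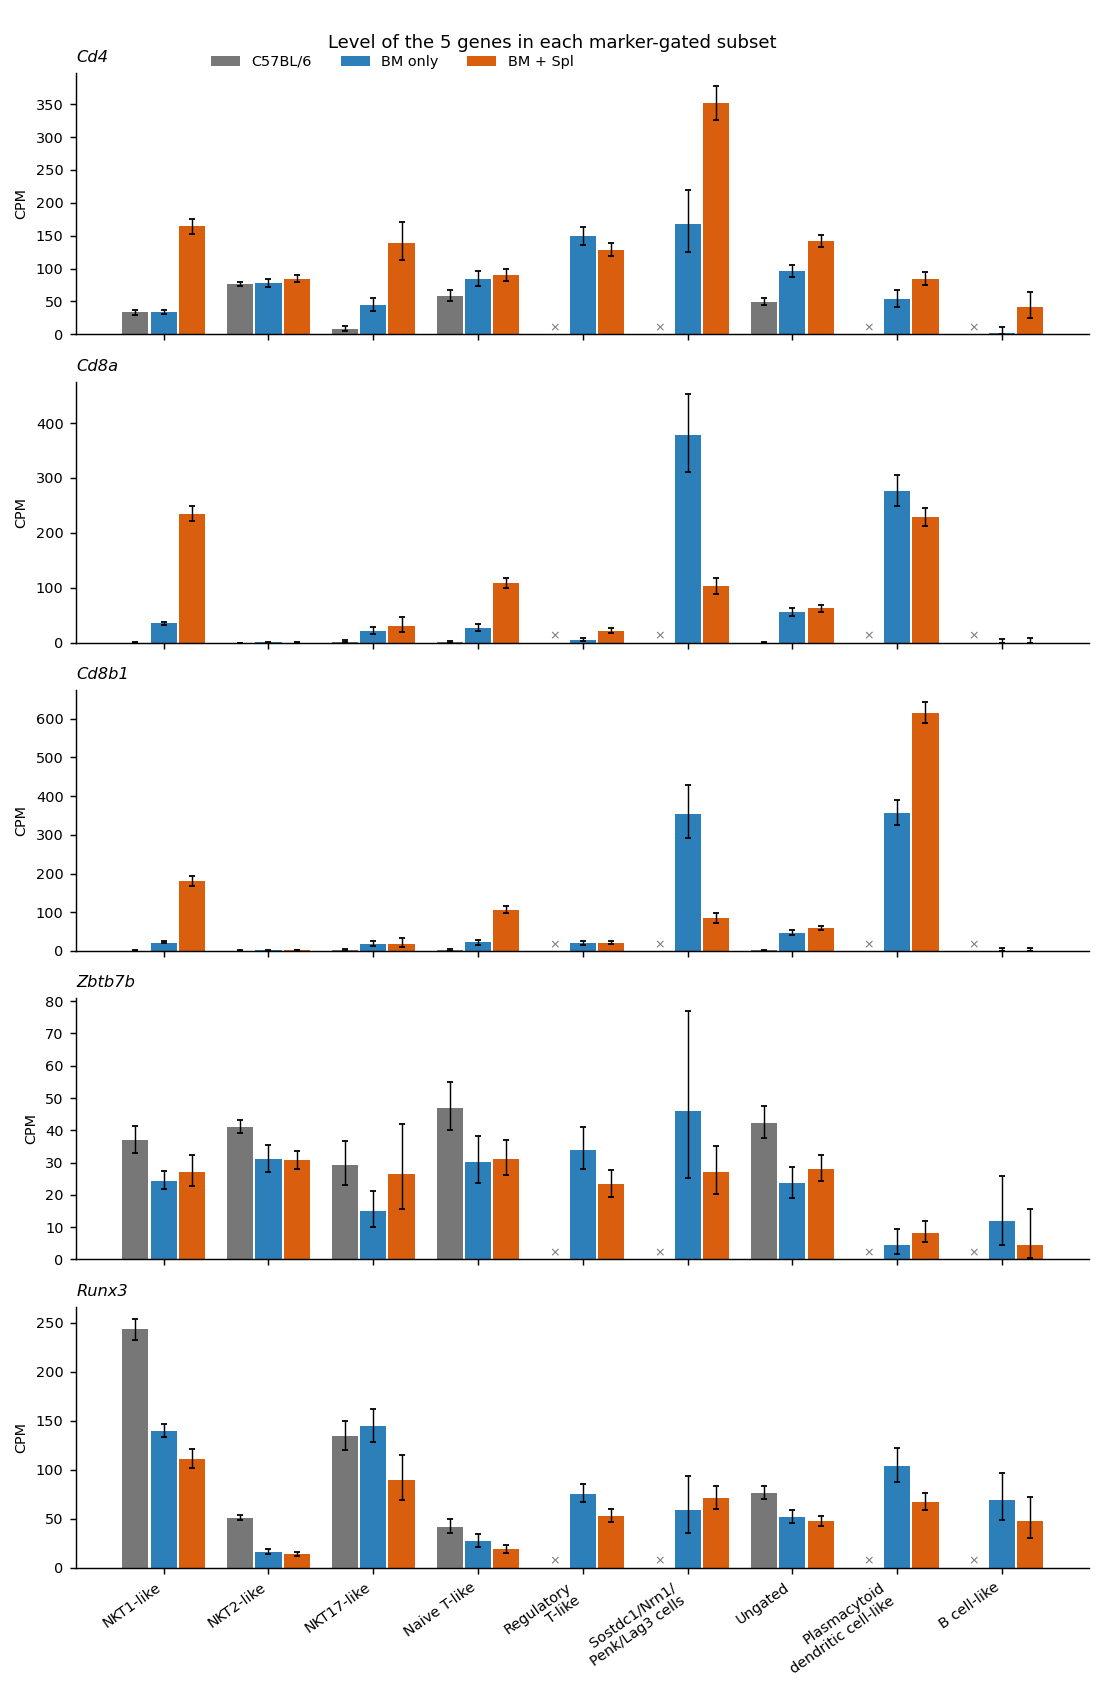
Level in CPM of each of the 5 genes (panels) by gated subset and library, with bars for exact Poisson 95% intervals and a cross where a subset had fewer than 50 cells. Cd4 of NKT1-like cells was at 34.1 CPM in BM only and 164 CPM in BM + Spl, Cd8b1 of plasmacytoid dendritic cell-like cells was at 357 and 615 CPM, Zbtb7b in BM only ran from 14.9 CPM in NKT17-like to 45.9 CPM in Sostdc1-list cells among T cell subsets, and Runx3 was high in NKT1-like and NKT17-like cells.

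Cd8b1 followed Cd8a across subsets with exceptions that concern which CD8 dimer the transcripts could make. Of Cd8a+ cells, 60.3% (211 of 350) also held a Cd8b1 UMI in BM only and 78.4% (487 of 621) in BM + Spl. NKT1-like cells with iNKT segments held Cd8a mostly without Cd8b1 in BM only, where 24 of 71 Cd8a+ cells (33.8%) held both, and with Cd8b1 in BM + Spl, where 33 of 40 (82.5%) did. In NKT1-like cells with other segments the share was 87.5% and 84.7%, close in both libraries. Counted as UMIs, Cd8b1 was at 0.356 per Cd8a UMI (0.266 to 0.472) in the NKT1-like cells with iNKT segments of BM only and at 0.844 (0.706 to 1.01) in those of BM + Spl. Plasmacytoid dendritic cell-like cells held Cd8b1 in excess, at 1.29 UMIs per Cd8a UMI in BM only and 2.69 (2.48 to 2.93) in BM + Spl. NKT2-like cells, low in both genes, held more Cd8b1 too, and none held both genes. They had 41, 16 and 30 UMIs of Cd8b1 against 2, 4 and 4 of Cd8a in C57BL/6, BM only and BM + Spl. In regulatory T-like cells the ratio was 3.76 (2.18 to 6.86) in BM only, from 64 against 17 UMIs in 46 and 6 cells, and 0.963 in BM + Spl. These ratios compare cell sets and not the abundance of the 2 proteins, since UMIs were not scaled by transcript length.

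**Figure D2:**
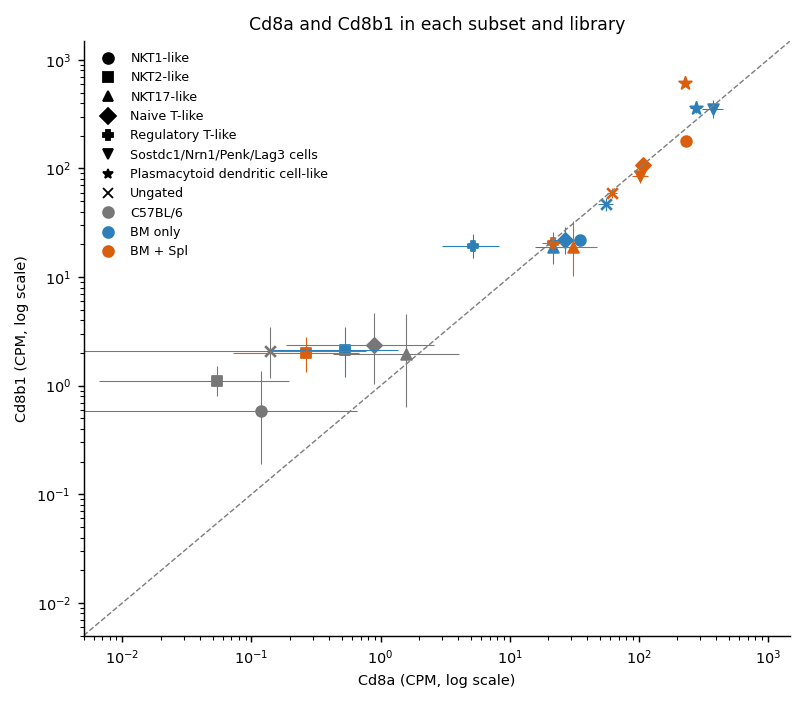
Cd8b1 against Cd8a in CPM on log axes, 1 point per gated subset (shape) and library (colour), with bars for exact Poisson 95% intervals and a dashed line at equal CPM. Plasmacytoid dendritic cell-like cells lie above the line, with 357 against 277 CPM in BM only and 615 against 228 CPM in BM + Spl. NKT2-like cells lie at the lower left, also above the line, at 2.12 CPM of Cd8b1 or less.

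With all segments pooled, NKT1-like cells with a UMI of Cd8a or Cd8b1 held more copies of it in BM + Spl. In NKT1-like cells with Cd8a the median was 2 UMIs in BM only and 5 in BM + Spl, and 24.4% and 51.9% of them held 5 or more. For Cd8b1 15.5% of the NKT1-like cells with a UMI held 5 or more in BM only and 51.2% in BM + Spl. With iNKT segments Cd8b1 had 68 UMIs in 44 cells in BM only and 233 in 38 in BM + Spl. With other segments it had 164 in 40 and 421 in 89. Cd8a had 191 UMIs in 71 cells and 276 in 40 with iNKT segments, and 164 in 32 and 582 in 85 with other segments. The part of segment makeup in the pooled values was not tested. In plasmacytoid dendritic cell-like cells the median of Cd8a went the other way, from 3 to 2 UMIs.

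Cells were then put in 4 classes by UMIs of Cd4 alone, of Cd8a or Cd8b1 alone, of both, or of neither. In C57BL/6 42.9% of cells held Cd4 only, 1.06% Cd8 only and 0.857% both. In BM only these shares were 23.2%, 7.69% and 2.01%, and in BM + Spl 43.9%, 12.0% and 5.54%. At equal depth they were 13.3%, 0.317% and 0.0226% in C57BL/6, 13.1%, 6.43% and 0.579% in BM only, and 25.9%, 11.9% and 2.10% in BM + Spl. The product of the 2 shares gave 37.2, 145.9 and 480.8 cells with both in C57BL/6, BM only and BM + Spl, and 38, 120 and 308 were found. These products run over a mix of cell types. Within subsets the number found was below the product in most T cell subsets of the transplant libraries but above it in regulatory T-like cells of BM only (32 against 25.8) and NKT2-like cells of BM + Spl (17 against 13.1), and near it or above in plasmacytoid dendritic cell-like cells (31 against 30.8 and 136 against 128.7). A cell in the class with neither may hold a coreceptor that was not sampled, since detection depended on depth.

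In NKT1-like cells the class with both was small. In BM only 10.7% of 2092 NKT1-like cells with iNKT segments held Cd4 only, 4.16% Cd8 only and 4 cells both, where the product of shares gave 9.92. In BM + Spl 33.1% of 248 held Cd4 only, 17.7% Cd8 only and 1 cell both, where the product gave 15.1. In NKT1-like cells with other segments Cd8 only was at 20.8% of 202 and 21.0% of 400 cells, and Cd4 only at 19.3% and 48.5%. NKT2-like cells with iNKT segments held Cd4 only in 48.1% and 52.7% and Cd8 only in 0.982% and 0.620%. NKT2-like cells were deeper, with medians of 9407 and 10338 UMIs against 4362.5 and 4722 in NKT1-like cells of BM only and BM + Spl. At equal depth Cd4 only was at 16.1% and 21.0% of NKT2-like cells with iNKT segments. In NKT1-like cells with iNKT segments it was at 6.54% and 21.6%.

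Naive T-like cells with other segments held Cd4 only in 41.8% of 55 cells and Cd8 only in 10.9% in BM only, and 26.9% and 29.9% of 167 cells in BM + Spl. Those with iNKT segments held Cd8 only in 6.90% and 11.3%. Of the cells of the Sostdc1, Nrn1, Penk and Lag3 list 39.3% held Cd4 only and 34.4% Cd8 only in BM only, against 70.1% and 9.89% in BM + Spl. In regulatory T-like cells Cd4 only was at 46.9% and 51.0%, and the class with Cd8 only was at 3.01% and 5.95%.

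**Figure D3:**
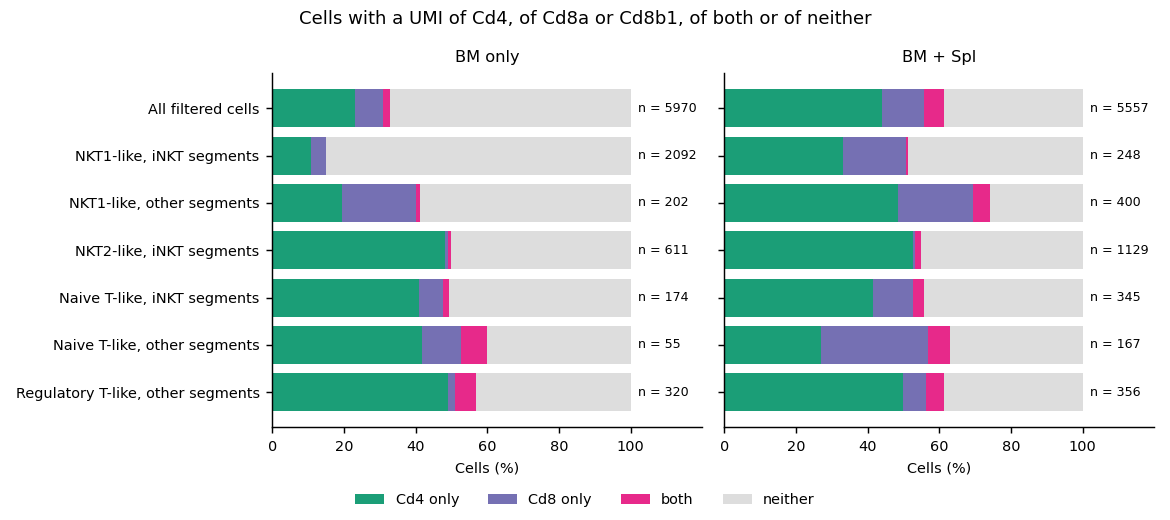
Share of cells (%) with UMIs of Cd4 only, of Cd8a or Cd8b1 only, of both and of neither in 7 sets of cells, BM only beside BM + Spl, as stacked bars that sum to 100%. In NKT1-like cells with iNKT segments the Cd4 only share was 10.7% and 33.1% and the Cd8 only share 4.16% and 17.7%. Shares are drawn at full depth, and at equal depth this Cd4 only share was 6.54% and 21.6%.

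The classes differed in T cell receptor segments. Here non-T cells were left out and thymocyte-like cells were kept. In BM only iNKT segments made up 70.3% of the Cd4 only, 59.7% of the Cd8 only, 40.0% of the both and 85.4% of the neither class. In BM + Spl they made up 59.9%, 39.9%, 35.8% and 68.9%. Trbv5, a segment outside the iNKT group, was held by 13.7% and 7.99% of the Cd8 only class and 18.3% and 15.4% of the both class in BM only and BM + Spl. In the Cd4 only and neither classes Trbv5 was no more common than Trbv1. Trbv1 was there at 9.34% and 10.5% in BM only and at 9.32% and 8.99% in BM + Spl. For BM + Spl this does not show a higher share of Trbv5 in the Cd8 only class. The invariant alpha chain of iNKT cells joins Trav11 to Traj18, and a UMI of Trav11, Trav11d or Traj18 was rare, found in 11.0% and 14.2% of NKT2-like cells with any Trav UMI, so its absence from a cell says little. Among NKT1-like cells with an iNKT beta segment it was found in 3 of 39 Cd8 only cells (7.69%), 21 of 131 Cd4 only cells (16.0%) and 117 of 677 cells with neither (17.3%) in BM only. In BM + Spl it was found in 0 of 34 Cd8 only cells (which allows a share of up to 8.82%), 2 of 64 Cd4 only cells (3.13%) and 11 of 64 cells with neither (17.2%).

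Zbtb16, which encodes the factor PLZF that marks iNKT cells, was read in the same classes. In NKT1-like cells with iNKT segments of BM only it was at 65.3 CPM with Cd4 only, 64.1 CPM with Cd8 only and 47.7 CPM with neither. In BM + Spl it was at 46.1, 8.18 and 105 CPM, and in the Cd8 only class it was found in 2 of 44 cells against 40 of 121 with neither. In BM + Spl the NKT1-like Cd8 only cells with an iNKT beta segment were therefore low in this marker of iNKT cells. In BM only they were not, from 27 UMIs in 14 of 87 cells (42.2 to 93.2 CPM). Naive T-like Cd8 only cells of all segments were lower than those with neither in both libraries. They were at 78.8 against 166 CPM in BM only, from 11 UMIs in 3 of 21 cells, and at 61.9 against 149 CPM in BM + Spl.

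In the main setting Zbtb7b was within 1.5-fold between NKT1-like and NKT2-like cells of each library. Over whole libraries it was at 40.4 CPM in C57BL/6, 25.6 CPM in BM only and 26.8 CPM in BM + Spl, found in 10.3%, 6.83% and 7.64% of cells at equal depth. In NKT2-like cells it was at 41.1, 31.1 and 30.7 CPM, and in NKT1-like cells at 37.0, 24.4 and 27.1 CPM. The log2 ratio of NKT1-like over NKT2-like cells was -0.15 (-0.33 to 0.03), -0.35 (-0.60 to -0.10) and -0.18 (-0.48 to 0.10). The BM only ratio passed 1.5-fold with cells thinned before gating (-0.67) and without the 6% of cells with the most UMIs (-0.62). In BM only NKT17-like cells were below NKT1-like and NKT2-like cells, at 14.9 CPM (10.0 to 21.2). This is a log2 ratio of -1.06 (-1.66 to -0.51) over NKT2-like cells. Plasmacytoid dendritic cell-like cells held 4.38 and 8.29 CPM in the transplant libraries, below every T cell subset.

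Runx3 was higher in NKT1-like and NKT17-like cells than in NKT2-like and naive T-like cells of every library. In C57BL/6 it was at 243 CPM (233 to 254) in NKT1-like, 134 CPM (120 to 149) in NKT17-like, 51.0 CPM in NKT2-like and 41.6 CPM in naive T-like cells, where the last 2 overlapped. In BM only it was at 140 CPM in NKT1-like, 145 CPM in NKT17-like and 16.3 CPM in NKT2-like cells, and in BM + Spl at 111, 89.6 and 13.9 CPM. The log2 ratio of NKT1-like over NKT2-like cells was 2.25 (2.16 to 2.34), 3.10 (2.83 to 3.38) and 3.0 (2.77 to 3.24). Runx3 was not limited to T cells, at 104 and 66.9 CPM in plasmacytoid dendritic cell-like and 69.3 and 47.8 CPM in B cell-like cells of BM only and BM + Spl. Regulatory T-like cells were intermediate at 75.6 and 52.8 CPM. Cells of the Sostdc1, Nrn1, Penk and Lag3 list held 59.1 and 71.0 CPM, and in BM + Spl their interval overlapped that of NKT17-like cells.

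Between NKT1-like and NKT2-like cells 1 of 3 members with enough UMIs was past 1.5-fold upward and 1 downward in C57BL/6, 3 of 5 upward and 1 downward in BM only, and 4 of 5 upward in BM + Spl. A gene was called at 1.5-fold in either direction among genes with at least 100 UMIs over both sides, and 29.2%, 32.9% and 29.9% of all such genes were called in these comparisons.

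The 2 factors were then read against the coreceptor class of a cell, with non-T and thymocyte-like cells left out. Over all subsets together, Zbtb7b was higher in cells with Cd4 only than in cells with Cd8 only after BMT, and Runx3 was lower. The classes differed in makeup. In BM only NKT2-like cells, which are low in Runx3, were 361 of 1364 Cd4 only and 10 of 336 Cd8 only cells. In BM + Spl they were 720 of 2405 and 7 of 447. The part of this makeup in the ratios was not tested. Zbtb7b was at 30.7 CPM with Cd4 only, 12.2 CPM with Cd8 only and 26.4 CPM with neither in BM only, and at 32.2, 9.44 and 27.7 CPM in BM + Spl. Its log2 ratio of Cd8 only over Cd4 only was -1.33 (-2.01 to -0.72) and -1.77 (-2.42 to -1.18). Cells with neither coreceptor were thus close to the Cd4 only class for Zbtb7b in both libraries. In C57BL/6 the Cd8 only class was small and the ratio was -0.50 (-1.22 to 0.13), from 20 Zbtb7b UMIs.

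Runx3 was at 53.5 CPM with Cd4 only, 101 CPM with Cd8 only and 99.4 CPM with neither in BM only, and at 38.6, 86.1 and 38.0 CPM in BM + Spl. In BM only cells with neither coreceptor were thus level with the Cd8 only class. In BM + Spl they were level with the Cd4 only class. NKT1-like cells, which are high in Runx3, were 2280 of the 3850 cells with neither in BM only. In BM + Spl they were 294 of 2016. The part of this makeup in the Runx3 levels was not tested. The log2 ratio of Cd8 only over Cd4 only was 0.91 (0.67 to 1.15) in BM only and 1.16 (0.93 to 1.37) in BM + Spl, and 0.47 (0.05 to 0.85) in C57BL/6. In cells with iNKT segments the ratio was 0.97 and 1.55 for Runx3 and -1.73 and -1.87 for Zbtb7b in BM only and BM + Spl, and Runx3 with neither coreceptor was at 100.5 CPM in BM only and 25.0 CPM in BM + Spl. In cells with other segments the ratio was 0.92 and 0.22 (-0.12 to 0.54) for Runx3 and -1.16 and -1.87 for Zbtb7b.

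**Figure D4:**
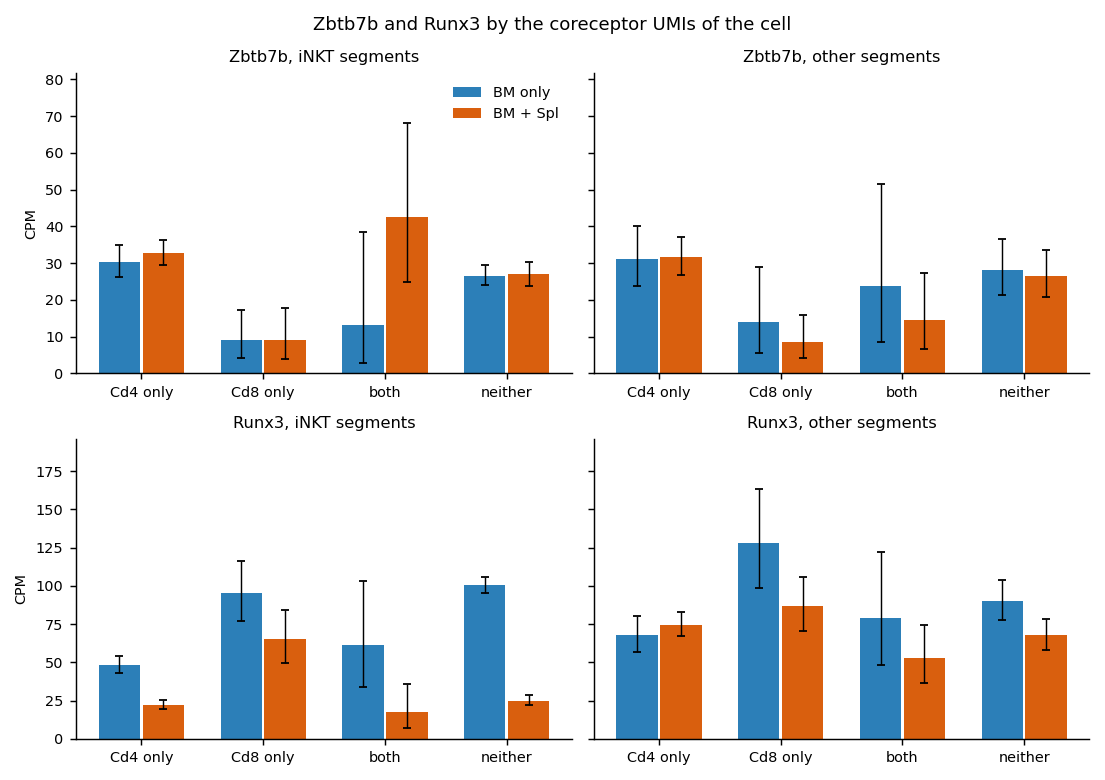
Zbtb7b (top) and Runx3 (bottom) in CPM in BM only and BM + Spl cells with Cd4 only, Cd8a or Cd8b1 only, both, or neither, with iNKT segments (left) and other segments (right), non-T and thymocyte-like cells left out, and bars for exact Poisson 95% intervals. With iNKT segments Zbtb7b was at 9.12 and 8.99 CPM in the Cd8 only class, and Runx3 in cells with neither coreceptor was at 100.5 CPM in BM only and 25.0 CPM in BM + Spl.

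The comparison of BM + Spl with BM only asks how the chronic GVHD condition goes with the 5 genes, with the limit that each is 1 library. Over all filtered cells Cd4, Cd8a and Cd8b1 were higher and Runx3 lower in BM + Spl, each past 1.5-fold, and Zbtb7b was within it. The log2 ratios were 0.84 (0.77 to 0.91) for Cd4, 0.93 (0.84 to 1.03) for Cd8a, 1.36 (1.27 to 1.45) for Cd8b1, 0.07 (-0.06 to 0.20) for Zbtb7b and -0.95 (-1.04 to -0.87) for Runx3. Thus 4 of 5 members were called, where 12.6% of all 11559 genes were. Without cells gated as non-T cells the ratio of Cd8b1 was 1.09 and that of Cd8a 1.06. Of cells with a segment call, 79.4% had an iNKT segment in BM only and 60.7% in BM + Spl. Both libraries had been depleted of CD8+ cells. The part of this makeup and of the depletion in the ratios was not tested.

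In cells with iNKT segments Cd8a was at 16.5 CPM in BM only and 32.1 CPM in BM + Spl, Cd8b1 at 12.2 and 34.3 CPM, and Runx3 at 84.8 and 25.5 CPM. The log2 ratios were 0.83 (0.73 to 0.93) for Cd4, 0.96 (0.78 to 1.14) for Cd8a, 1.49 (1.29 to 1.69) for Cd8b1, 0.14 (-0.02 to 0.30) for Zbtb7b and -1.73 (-1.87 to -1.60) for Runx3. With every cell thinned to 2700 UMIs Cd8b1 was at 2.21. Here 4 of 5 members were called, where 14.3% of all genes were.

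In cells with other segments none of the 5 members was called, where 7.23% of all genes were. Cd4 was at 124 and 180 CPM, a log2 ratio of 0.53 (0.40 to 0.67), Cd8a at 88.0 and 126 CPM (0.52, 0.36 to 0.68) and Runx3 at 84.6 and 71.8 CPM (-0.24, -0.42 to -0.06). This count turned on depth and on cell types. With every cell thinned to 2700 UMIs Cd4, Cd8a and Cd8b1 were at 0.74, 0.63 and 0.65 and past 1.5-fold. Without regulatory T-like and non-T cells Cd4 was at 0.91, whereas the ratios of Cd8a and Cd8b1 were lower than with those cells kept.

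The libraries differed in makeup, and Runx3 differed less within subsets than over whole libraries. NKT1-like cells were 46.2% of BM only and 14.6% of BM + Spl cells, and NKT2-like cells 12.4% and 24.3%. Within NKT1-like cells the log2 ratio of Runx3 was -0.33 (-0.48 to -0.19) and within NKT2-like cells -0.23 (-0.56 to 0.10). Within NKT1-like cells with iNKT segments it was -0.76 (-1.03 to -0.49), at 145 CPM in BM only and 85.8 CPM in BM + Spl.

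The coreceptor genes differed within some gated subsets too, and a shift of makeup inside a subset was not tested. In NKT1-like cells Cd4 was 2.27 (2.10 to 2.44), Cd8a 2.75 (2.59 to 2.91) and Cd8b1 3.05 (2.85 to 3.25) higher on the log2 scale in BM + Spl. With iNKT segments alone Cd4 was at 29.9 CPM in BM only and 140 CPM in BM + Spl, Cd8a at 19.7 and 191 CPM, and Cd8b1 at 7.01 and 161 CPM, which are log2 ratios of 2.22, 3.28 and 4.52. With other segments they were 1.58, 0.62 and 0.15, so that only Cd8b1 of these stayed within 1.5-fold. Zbtb7b of NKT1-like cells was at 0.15 (-0.16 to 0.45), and of those with other segments at 0.72 (-0.12 to 1.64), from too few UMIs for a call.

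In naive T-like cells Cd8a (2.02, 1.63 to 2.42) and Cd8b1 (2.27, 1.85 to 2.72) were higher and Cd4 (0.10, -0.15 to 0.36) was level. In NKT2-like cells Cd4 (0.12, -0.02 to 0.27) and Zbtb7b (-0.01, -0.24 to 0.22) were level. In NKT17-like cells Cd4 was higher (1.65, 1.21 to 2.08) and Runx3 lower (-0.69, -1.11 to -0.29). These cells had an iNKT segment in 69.9% of calls in BM only and 45.7% in BM + Spl. In BM only 8.42% of 190 with iNKT and 28.0% of 82 with other segments held Cd4 only. In BM + Spl 58.0% of 50 with other segments did, and the 42 with iNKT segments were too few to give. The part of this makeup in the ratios was not tested. In cells of the Sostdc1, Nrn1, Penk and Lag3 list Cd4 was higher (1.07, 0.66 to 1.51) and Cd8a (-1.88, -2.21 to -1.53) and Cd8b1 (-2.05, -2.40 to -1.69) were lower. In regulatory T-like cells Cd8a was higher (2.07, 1.32 to 2.90) and Cd8b1 level (0.10, -0.36 to 0.57). This Cd8a ratio rests on 17 UMIs in 6 of 565 cells in BM only and 108 UMIs in 22 of 622 cells in BM + Spl. Its interval does not cover the sampling of so few cells.

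**Figure D5:**
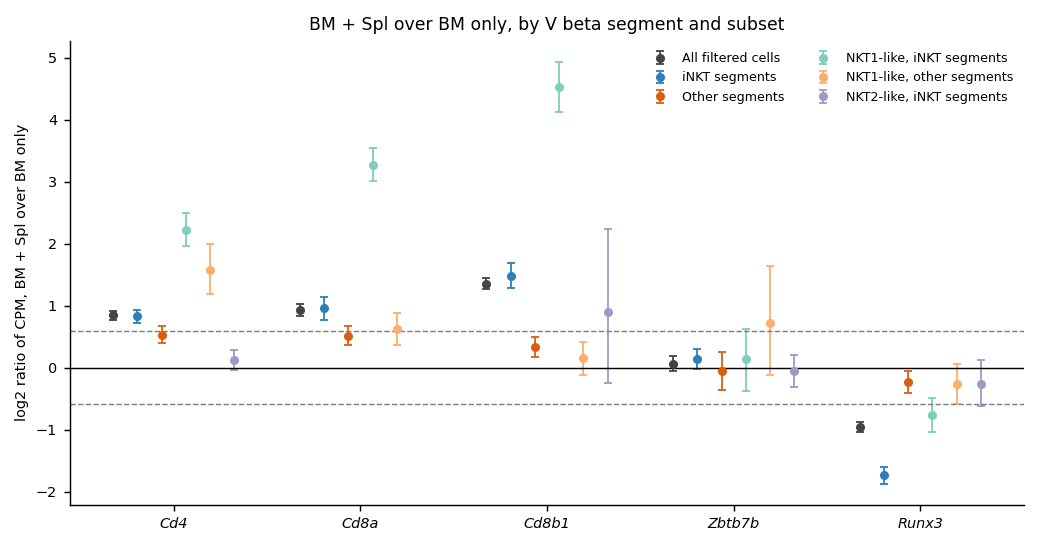
Log2 ratio of CPM, BM + Spl over BM only, of the 5 genes in all filtered cells, by beta V segment, and in NKT1-like and NKT2-like cells by segment, with exact 95% intervals and dashed lines at 1.5-fold either way, where points with fewer than 20 UMIs on both sides together are not drawn. Cd4, Cd8a and Cd8b1 of NKT1-like cells with iNKT segments lie at 2.22, 3.28 and 4.52 and Runx3 of all cells with iNKT segments at -1.73, whereas Zbtb7b lies within the lines in every set but NKT1-like cells with other segments, where it is at 0.72 with an interval that spans 0.

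Within each transplant library cells with other segments were set against those with iNKT segments. In BM only the log2 ratio was 1.10 (0.96 to 1.24) for Cd4, 2.41 (2.21 to 2.62) for Cd8a and 2.97 (2.75 to 3.20) for Cd8b1, and near 0 for Zbtb7b (0.03) and Runx3 (84.6 against 84.8 CPM). In BM + Spl it was 0.81 for Cd4, 1.97 for Cd8a, 1.82 for Cd8b1, -0.17 for Zbtb7b and 1.49 (1.33 to 1.65) for Runx3, at 71.8 against 25.5 CPM. With cells split by a UMI of Trav11, Trav11d or Traj18 instead, Cd8a and Cd8b1 were at 3.10 and 3.73 in BM only and at 3.59 and 3.0 in BM + Spl. These ratios kept non-T cells on both sides. Among T cells alone, those with such a UMI held few Cd8 UMIs. They held 7 of Cd8a and 5 of Cd8b1 in 269 BM only cells, and 12 and 19 in 200 BM + Spl cells. Their Cd8a was at 3.79 CPM in BM only and 4.96 CPM in BM + Spl, against 30.3 and 80.1 CPM in T cells with only other Trav UMIs. Cd8b1 was at 2.70 and 7.86 CPM against 31.0 and 68.9 CPM. The other side was not free of iNKT cells, since 1542 of its 2656 BM only and 1492 of its 3253 BM + Spl T cells had an iNKT beta segment. By beta segment 3 of 5 members were called in BM only, where 17.1% of all genes were, and 4 of 5 in BM + Spl, where 21.4% were.

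Within NKT1-like cells the same contrast was steep in BM only and shallow in BM + Spl. Cd8a was at 186 CPM with other and 19.7 CPM with iNKT segments in BM only (3.24, 2.93 to 3.55), and at 286 and 191 CPM in BM + Spl (0.58, 0.37 to 0.79). Cd8b1 was at 186 and 7.01 CPM in BM only (4.73, 4.32 to 5.16), and at 207 and 161 CPM in BM + Spl (0.36, 0.13 to 0.60). Cells with other segments were thus high in both libraries, and cells with iNKT segments were low in BM only and high in BM + Spl. In regulatory T-like cells no member had an interval of this ratio off 0 in either library.

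The gated subsets were split further by lists of proliferation and interferon response genes. Cycling NKT2-like cells held less Cd4 than the other NKT2-like cells, with log2 ratios of -0.59 (-0.74 to -0.45), -1.07 (-1.48 to -0.69) and -0.60 (-0.82 to -0.39) in C57BL/6, BM only and BM + Spl. For Zbtb7b these were -0.39, -0.65 and -0.30. NKT1-like cells with an interferon response held less Cd4 in BM + Spl (-1.05, -1.47 to -0.66), at 85.3 against 177 CPM, and were level in BM only (0.24, -0.21 to 0.67).

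A list of 24 genes that act with or downstream of the 2 factors was read in the same comparisons. Themis, which tunes T cell receptor signals at positive selection, and Hivep3 were past 1.5-fold upward in BM + Spl over all filtered cells (0.73 and 0.67), Itgae, the integrin CD103 that Runx3 is known to favour, was past it downward (-1.18), and the other 21 were within it. The median of the list was 0.03 and that of all genes 0.01. Thus 2 of 24 listed genes were up and 1 down, a count near the share over all genes, of which 12.6% were called. In cells with iNKT segments 5 of 23 were higher, among them Hivep3 (0.93), Myb (0.83), Themis (0.76) and Tox (0.67), which is needed for the CD4 lineage, and 2 were lower, Itgae (-1.77) and Socs1 (-0.72), a brake on cytokine signals. In cells with other segments 0 of 23 were higher and Itgae was lower (-0.89). The list medians there were 0.05 and -0.05, beside 0.01 and -0.03 for all genes. Of all genes 14.3% were called with iNKT segments and 7.23% with other segments. Eomes had too few UMIs by segment.

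Between other and iNKT segments 3 of 23 listed genes were higher and 5 lower in BM only, and 5 and 5 in BM + Spl. Of all genes 17.1% and 21.4% were called in these comparisons. Runx2, a relative of Runx3, led in both (1.43 and 1.98), and Itgae was at 0.65 and 1.54. Lef1, a factor of the Tcf7 family that promotes the CD4 fate, was lower in both (-1.06 and -1.60). Between NKT1-like and NKT2-like cells 5 of 23 were higher in each library and 7, 9 and 7 lower, where 29.2%, 32.9% and 29.9% of all genes were called. Runx2 (3.20, 4.12 and 6.15), Itgae (1.98, 2.72 and 1.98) and Socs1 (1.63, 2.04 and 1.80) were higher and Lef1 (-2.01, -2.92 and -2.75) lower in C57BL/6, BM only and BM + Spl. Themis was lower in NKT1-like cells of C57BL/6 (-2.26) and BM only (-1.90) and higher in those of BM + Spl (1.29). These list values run over all NKT1-like cells and were not split by segment. In BM + Spl 38.3% of those with a segment call had an iNKT segment, and a part of this makeup in the values was not tested.

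The genes closest in pattern to each member were found over 23 profiles of a subset in a library with at least 50 cells, as Pearson's r of log2(CPM + 1) centred within each library, among 9718 genes with at least 500 UMIs. These profiles share libraries and depth, so r is a description. Cd8a and Cd8b1 were each other's nearest (0.966), followed for Cd8a by Samd4b (0.834) and Zfp113 (0.829) and for Cd8b1 by Cdk19 (0.885) and Mospd1 (0.855). Cd4 was nearest to Cox20 (0.909), Spry1 (0.875) and Nrp1 (0.868). Zbtb7b was nearest to Med4 (0.946), Gfi1 (0.944) and Kif2a (0.938), and Runx3 to Jund (0.948), Sorl1 (0.944) and Rabac1 (0.930). Several of these depended on the centring. Without it r was -0.16 for Zfp113, 0.517 for Cdk19, 0.549 for Gfi1, 0.216 for Jund and 0.555 for Rabac1, and none of the 3 genes named for Runx3 stayed among its nearest 3. Between members r was 0.532 for Cd4 with Zbtb7b, 0.371 for Cd8a with Runx3 and -0.323 for Zbtb7b with Runx3.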

How the data were processed

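Thymic cells of 1 library per condition were profiled by droplet single-cell RNA-seq. The authors deposited counts of UMIs per gene and barcode, and per the labels they were made with Cell Ranger on mm10, with Seurat 4.0.2 used downstream. File headers name Cell Ranger 3.0.2 (C57BL/6) and 7.0.0 (BM only, BM + Spl), the study's methods give another version, and 3′ and 5′ kits are both listed. Labels and methods differ in the age of the C57BL/6 mice, and the cell totals the study states differ from those its limits leave here.

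Cells with more than 200 and fewer than 6000 genes and under 10% mitochondrial UMIs were kept, and doublets were not removed. A cell took the list of 8 markers of which it held most, with at least 3 found and a lead of at least 1 (Zbtb16 required for NKT2-like, Foxp3 for regulatory T-like), and a V segment when it held 80% of the cell's Trbv UMIs. UMIs were summed and given as CPM with exact Poisson intervals, shares with Clopper-Pearson intervals and ratios with exact conditional binomial intervals, at 95%. With 1 library per condition no test was made, and a call was a 1.5-fold ratio with at least 100 UMIs over both sides. A set of at least 50 cells was required for a subset. Depth was 60600408, 35041153 and 43383960 UMIs in 4613, 5986 and 5573 barcodes of C57BL/6, BM only and BM + Spl. The members, gene lists and rules were chosen with earlier results of these data known. Named genes were the members, the 4 listed genes with the largest ratios each way past 1.5-fold at most, and the 3 nearest in pattern to each member. Alternatives were thinning to 2700 UMIs, other filters on cells, gates, segments and scaling. The scripts were tested on simulated data and used Python 3.11.15, numpy 2.4.6, scipy 1.17.1, pandas 2.3.3 and matplotlib 3.10.9. Only RNA counts were used here.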

Additional observations from a re-analysis of the deposited data

Results flagged for a closer look

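The ratio of Cd4 between subsets changed sign between libraries, which was not tested since each condition was 1 library. NKT1-like over NKT2-like cells gave log2 ratios of -1.20 in C57BL/6, -1.19 in BM only and 0.95 in BM + Spl, and -0.79, -1.36 and 0.74 in cells with iNKT segments. NKT17-like over NKT2-like cells gave -3.15, -0.80 and 0.72 for Cd4. For Runx3 the ratio of naive T-like over NKT2-like cells was -0.29 in C57BL/6, 0.74 in BM only and 0.43 in BM + Spl, and this difference was not tested either. For Cd8a the ratio of NKT1-like cells with an interferon response over the other NKT1-like cells was 0.56 in BM only and -0.59 in BM + Spl, likewise untested.

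Barcodes outside the limits on cells also held UMIs of the members above what a count of 0 allows. In the 179 such barcodes of C57BL/6 Cd4 was at 65.3 CPM, Cd8a at 2.29, Cd8b1 at 14.9, Zbtb7b at 35.5 and Runx3 at 85.9 CPM. In the 16 such barcodes of each transplant library Cd4 was at 78.9 CPM in BM only and 120 CPM in BM + Spl.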

How the results depend on the processing

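Shares, levels and ratios all moved with depth, and each condition was 1 library, so the spread between mice is unknown. With every cell thinned 35 of 52 values moved beyond their interval. With thinning before gating 56 of 117 levels and ratios did. Log2 ratios were recomputed under each alternative, so the same ratio is counted more than 1 time here. Of 90 recomputed values of ratios called in the main setting, 90 kept their sign and stayed past 1.5-fold. Of 53 recomputed values of uncalled ratios, 6 passed it. All deposited barcodes, the call at 2 or more Trbv UMIs, and both scalings (shifts of the median gene within 0.03) moved no value beyond its interval. No paired analysis was possible because each group had 1 library. The cause of the moves below was not tested.

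With a lead of 2 genes, NKT1-like over NKT2-like cells gave 2.38 for Runx3 in C57BL/6 and 0.76 for Cd4 in BM + Spl. Thinned to 2700 UMIs before gating, it gave 2.76 for Runx3 in C57BL/6, -1.42 for Cd4, -0.67 for Zbtb7b and 3.47 for Runx3 in BM only, and 7.90 for Cd8a in BM + Spl. Without the 6% of cells with the most UMIs, it gave -1.56 for Cd4 and -0.62 for Zbtb7b in BM only, and the Cd4 only share of BM only was 21.9%.

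With every cell thinned, the shares with Cd4 only, Cd8 only and both were 13.3%, 0.317% and 0.0226% in C57BL/6 and 13.1%, 6.43% and 0.579% in BM only, and those with Cd4 only and both 25.9% and 2.10% in BM + Spl. Cd8b1 was then in 49.1% and 72.7% of the Cd8a+ cells of the transplant libraries, BM only first. Other over iNKT segments gave 1.34 for Cd4 and 0.32 for Zbtb7b in BM only, and 1.49 for Cd8a, 1.29 for Cd8b1 and -0.44 for Zbtb7b in BM + Spl. BM + Spl over BM only gave 1.23 for Cd4, 1.32 for Cd8a, 1.79 for Cd8b1 and -0.80 for Runx3 in all cells, 1.30, 1.53 and 2.21 for the coreceptor genes and 0.41 for Zbtb7b with iNKT segments, and 0.74 for Cd4 and 0.65 for Cd8b1 with other segments.

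Cells with only other Trav UMIs were also set over cells with a UMI of Trav11, Trav11d or Traj18, whose T cells held few Cd8 UMIs. Non-T cells were kept on both sides. This gave 0.61 for Cd4, 3.10 for Cd8a and 3.73 for Cd8b1 in BM only. In BM + Spl it gave 3.59 for Cd8a, 3.0 for Cd8b1 and 1.13 for Runx3. Without non-T cells, BM + Spl over BM only gave 1.06 for Cd8a and 1.09 for Cd8b1 in all cells and 0.14 for Cd8b1 with other segments. Without regulatory T-like cells as well, it gave 1.05 for Cd4, 1.07 for Cd8a, 1.18 for Cd8b1 and -1.11 for Runx3 in all cells, and 0.91, 0.21, -0.10 and 0.27 for Cd4, Cd8a, Cd8b1 and Zbtb7b with other segments.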
